A study of Mus musculus with 6 samples.

Results

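The comparison described here set the cerebral cortex at day 28 after an experimental stroke against the cortex of sham-operated mice, and asked which genes still stood away from the control level at the last time point of the series. It used 2 of the 6 libraries, and it covered 11751 of the 15441 genes that had a value in any library, namely those with at least 1 FPKM, a read count scaled to transcript length and library size, at day 28 or in control. The stroke was a photothrombosis, in which the dye Rose Bengal is injected and light through the intact skull closes the vessels of the sensorimotor cortex. The mice were male C57/BL6J, 6 to 8 weeks old at the operation, with no transgene. Control mice had the same operation without the illumination and were taken at day 7 after it, so the day 28 mice were later after surgery as well as after a stroke, and the share of either in a difference cannot be told apart. RNA of the whole ipsilateral cortex of 3 mice went into each library as a pool, so each group was 1 library, no difference had a replicate check and no test was run. Poly(A) RNA was sequenced strand by strand as read pairs of 150 bases, to a stated average of 33.6 M reads. The depth of each library is unknown.

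Ischaemic cortex passes through a known sequence. Microglia, the resident macrophages of the brain, and invading myeloid cells clear debris and turn on lipid handling, lysosomal and antigen presentation genes. Astrocytes around the lesion turn on intermediate filament genes and wall it off, and fibroblasts and vessel cells lay down matrix. Neurons at the border lose activity and synapses and in part regain them. In whole tissue, fewer cells of a type and less RNA per cell cannot be told apart.

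The 2 libraries held the transcripts that the label calls for. Slc17a7, the vesicular glutamate transporter of cortical excitatory neurons, had 303 FPKM in control and 251 at day 28, and the synaptic gene Snap25 had 706 and 629. Of 10 general neuronal genes, 9 were compared, none passed the threshold and the median log2 ratio of day 28 to control was -0.17. The tables do not list every gene that the tissue uses. Neurod6, a gene of cortical excitatory neurons, had no value in any library, and Cx3cr1, the fractalkine receptor of microglia, was listed neither in control nor at day 28. A gene that was not listed in a library was counted as 0 there. Where such a gene was compared, its ratio entered the counts and list medians, but that ratio is not printed.

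Most genes stood near their control level at day 28. The log2 ratio, computed as log2((day 28 FPKM + 0.1)/(control FPKM + 0.1)), had a median of 0.03 over all 11751 genes, and its middle 50% lay between -0.17 and 0.24. It was positive for 6321 genes (53.8%), and the counts of positive ratios in the lists below stand beside this share. A log2 ratio of at least 1, a 2-fold difference, was found for 432 genes higher at day 28 (3.68% of those compared) and for 328 lower (2.79%), 6.47% in all. With the same rule and the same control library, day 1 had 602 higher and 528 lower genes, day 3 had 1029 and 305, day 7 had 1030 and 256, and day 14 had 1081 and 834. Of the 432 higher genes, 84 were not listed in control, and of the 328 lower genes, 84 were not listed at day 28. The threshold fell within a dense range of values, with 53 genes between 1 and 1.1 on the log2 scale and 103 between 0.9 and 1, and on the lower side 49 genes between -1.1 and -1 and 64 between -1 and -0.9.

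**Figure D1:**
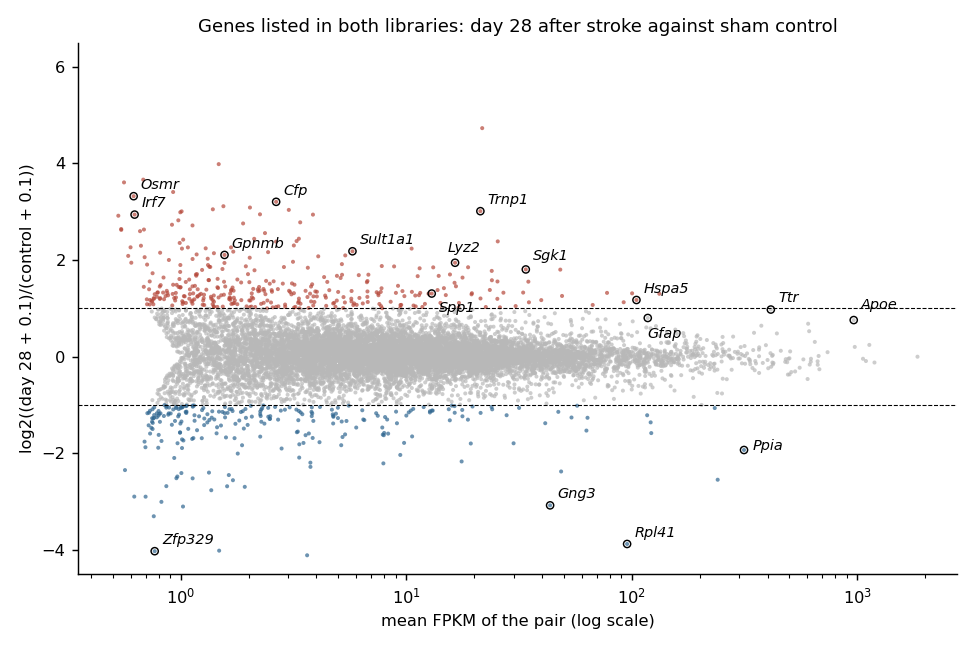
Each point is 1 of the 11583 genes listed in both libraries, with the mean FPKM of the pair on the x axis (log scale) and the log2 ratio of day 28 to control on the y axis; red points are at 1 or above, blue points at -1 or below, and dashed lines mark the threshold. The cloud narrows from left to right, and few genes above 100 FPKM are coloured, Hspa5 and Ppia among those circled.

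Calls were concentrated among low genes. Among the 1681 genes with a mean FPKM of the pair between 0.5 and 2, 25.6% passed the threshold in one direction or the other. The share was 6.3% of 2525 genes between 2 and 5 FPKM, 2.52% of 4882 genes between 5 and 20, and 1.76% of 2663 genes at 20 or above, where 26 genes were higher and 21 lower. Of the 760 called genes, 182 had their smaller value under the pseudocount of 0.1 FPKM.

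The other 4 libraries were set beside each call. A gene called higher was chosen for a low control or a high day 28 value, so the counts that follow are partly fixed by that choice and only describe the called genes. Of the 432 higher genes, 297 had their lowest value of the 6 libraries in control, counting libraries tied at not listed, and in 188 of these day 28 was not the highest, so that these genes stood at or above control in every library after stroke and higher at an earlier day. In 191 of the 432, day 28 was the highest of the 6, and in 82 of these control was not the lowest. Among the lower genes, day 28 was the lowest library in 232 of 328, and control was the highest in 132. In 155 lower genes day 28 was the lowest library while another library, not control, was the highest.

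**Figure D2:**
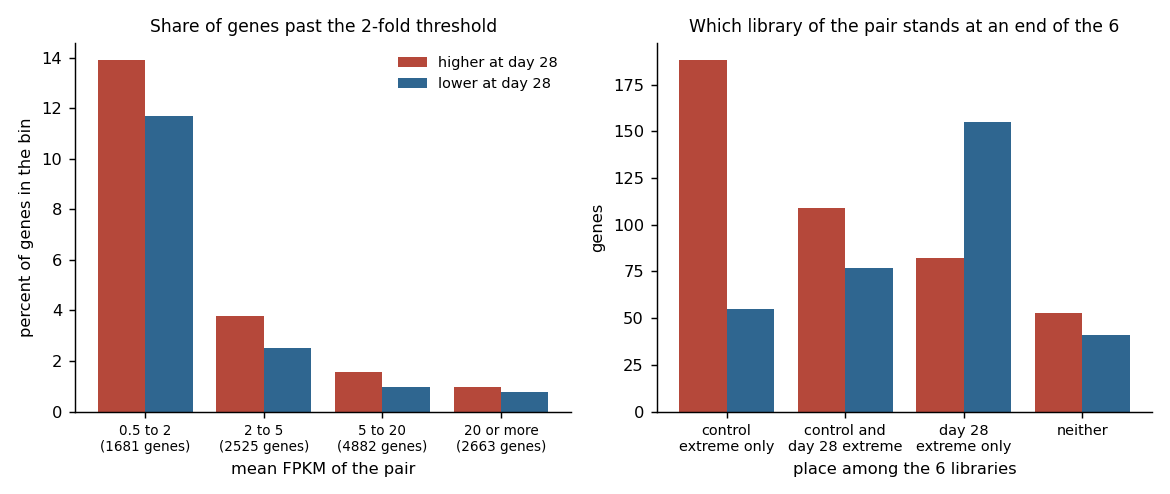
Left, the percent of genes higher (red) or lower (blue) at day 28 by mean FPKM of the pair, falling from 13.9% and 11.7% in the lowest bin to 0.976% and 0.789% in the highest. Right, the number of called genes by whether control, day 28, both or neither held the end value of the 6 libraries (lowest control and highest day 28 for higher genes, the opposite for lower genes), with 188 higher genes where only control did and 155 lower genes where only day 28 did.

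Some genes of debris-clearing microglia and macrophages were above control at day 28. In the list of 25 genes of disease-associated microglia, the state that takes up lipid and debris, 23 were compared, 6 were higher and none was lower, and 21 had a positive log2 ratio. The median was 0.15, beside 0.03 over all genes. At day 28 the median member stood at 21.3% of its highest library, and in control at 17.4%. The highest library was day 7 for 17 of the 23 members and day 14 for 5.

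Lyz2, the lysozyme of myeloid cells, had 6.73 FPKM in control, then 11.0, 137, 357 and 196 FPKM in the libraries of days 1, 3, 7 and 14, and 26.2 FPKM at day 28 (log2 ratio 1.94). Gpnmb, a membrane glycoprotein of lipid-laden macrophages, had 0.528 in control, 1.06, 18.6, 68.9 and 27.6 at days 1 to 14, in the same order, and 2.60 at day 28 (log2 ratio 2.11). Spp1, which encodes osteopontin, had 7.42 in control, 24.3, 323, 783 and 151 at days 1 to 14 and 18.5 at day 28 (1.31). All 3 genes reached their highest value at day 7 and were still above control at day 28. Lgals3, which encodes galectin-3, was listed with 0.386 in control and 1.87 at day 28 (2.02), and Cst7, a cathepsin inhibitor, with 0.403 and 1.13 (1.29). Clec7a, the beta-glucan receptor dectin-1, was not listed in control and had 1.18 at day 28, after 12.6 at day 7.

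The other members did not pass the threshold. Apoe, the main lipid carrier of the brain, had 716 FPKM in control, 3534 at day 14 and 1212 at day 28, a log2 ratio of 0.76, and its summed transcript starts gave 0.16. Tyrobp and Trem2, which together form a lipid-sensing receptor, had log2 ratios of 0.56 and 0.55. The lysosomal genes Ctsd, Ctsb and Ctsz and the macrophage marker Cd68, named after their values were seen, had log2 ratios of 0.13, 0.04, -0.06 and -0.27, although Ctsd had gone from 124 FPKM in control to 1169 at day 7. Lyz2, Spp1 and Gpnmb thus stood 2-fold or more above control, and these 4 genes did not.

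Homeostatic microglial genes were near control. Of 14 genes written for this list 10 were compared, none was higher, 2 were lower and the median was -0.12. P2ry12, the ADP receptor of resting microglia, had 18.0 FPKM in control and 15.6 at day 28, and Aif1, which encodes the microglial marker Iba1, had 4.43 and 5.63. Of the 2 lower members, Selplg had all of its value from events outside the annotated gene, and Fcrls was listed by different events in the 2 libraries. Fcrls, an Fc receptor-like gene of microglia, had 15.2 in control, 19.2, 63.9, 78.5 and 36.7 at days 1 to 14 and 3.63 at day 28, the lowest of the 6. In control only transcript ends were listed for it, at day 28 a start and an end, so its summed starts gave a log2 ratio of 5.22 and its summed ends one of -2.86. Of 10 genes of macrophages at the brain borders, 4 were compared and none passed, with Mrc1 at 1.30 and 1.44 and Pf4 at 2.09 and 2.14 FPKM in control and at day 28.

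Complement genes all lay on the higher side. Of 16 genes written, 9 were compared, all 9 had a positive log2 ratio, 3 passed the threshold and the median was 0.56. The subunits of C1q, which tags debris and synapses for removal, had log2 ratios of 0.25 (C1qa), 0.37 (C1qb) and 0.56 (C1qc), at 50.6, 53.4 and 24.3 FPKM at day 28 after 259, 219 and 117 at day 7. Cfp, which encodes properdin, the stabiliser of the alternative pathway convertase, behaved otherwise. It had 0.438 FPKM in control, 0.350, 0.729, 1.56 and 3.82 at days 1 to 14 and 4.86 at day 28, so day 28 was the highest library (log2 ratio 3.21). The values of Cfp came from transcript ends, and its summed starts were under 1 FPKM in both libraries of the pair. C2 and C1ra, a protease component and a C1 subunit, had 1.5 and 1.07 FPKM at day 28 and log2 ratios of 1.25 and 1.14, and for C2 the summed ends, under 1 FPKM in both libraries, gave -1.39.

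A few antigen presentation and interferon-stimulated genes were above control. All 5 MHC class II genes compared, of 10 written, had a positive log2 ratio, 1 passed the threshold, and the median was 0.76. H2-Ab1, a chain of the class II molecule I-A, had 0.782 FPKM in control, 1.46, 4.82, 4.42 and 8.83 at days 1 to 14 and 2.02 at day 28 (log2 ratio 1.27), and H2-Aa, its partner chain, had 1.16 and 2.38 in control and at day 28 (0.98). Of 10 MHC class I pathway genes 1 passed, H2-M3 with 0.668 and 1.79 FPKM, 6 had a positive log2 ratio and the median was 0.11. Tapbp and Psmb10, of the peptide-loading pathway, had -0.40 and -0.26, both at their lowest of the 6 libraries, although the summed ends of Tapbp gave 0.22. B2m, the shared light chain, had 71.1 in control, 308 at day 14 and 91.6 at day 28. The class I genes are near copies of each other, and how reads were shared between them is not given in the sources used here.

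Of 31 interferon-stimulated genes 19 were compared, 4 were higher, none was lower, 15 had a positive log2 ratio and the median was 0.41. Irf7, a transcription factor that amplifies the interferon response, had 0.0669 FPKM in control, 0.129, 0.798, 3.10 and 5.14 at days 1 to 14 and 1.18 at day 28. Ifi27l2a had 0.254 in control, 15.9 at day 14 and 1.80 at day 28, a log2 ratio of 2.42. Gbp2, a guanylate-binding protein, had 0.662 and 1.64 FPKM in control and at day 28 (1.19), and Irgm1, an immunity-related GTPase, was not listed in control and had 1.05. Rtp4 lay at the threshold with 0.841 and 1.78 FPKM. Ifit2, an interferon-induced gene named after its values were seen, had 2.58 and 2.52, so members ranged from the control level to several times above it. The promoters of these genes often hold the core of the interferon-stimulated response element, GAAANNGAAA on either strand. It was found in 17 of 23 members with a promoter in RefSeq and in 3.44% of all 32851 mouse promoters searched, each from 250 bases before to 50 after a start. Of the 4 members higher at day 28, Irgm1 and Gbp2 were among the 17, and Irf7 and Ifi27l2a were not. The core stands in capitals in the 2 windows below, before the RefSeq start of Irgm1 and of Gbp2. In Gbp2 it lies on the opposite strand (both windows from RefSeq, build GRCm38.p6, each read on the strand of its gene):
Irgm1, chr11:48871421-48871480, minus strand: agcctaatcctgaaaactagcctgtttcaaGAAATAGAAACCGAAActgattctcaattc
Gbp2, chr3:142620579-142620638, plus strand: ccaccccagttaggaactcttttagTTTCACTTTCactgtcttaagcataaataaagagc

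The start of Irgm1 listed at day 28 was the RefSeq start itself. That of Gbp2 lay 61 bases before its RefSeq start, so the element of Gbp2 falls just after the listed start. A match of letters is a description, and whether a factor was bound was not measured.

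**Figure D3:**
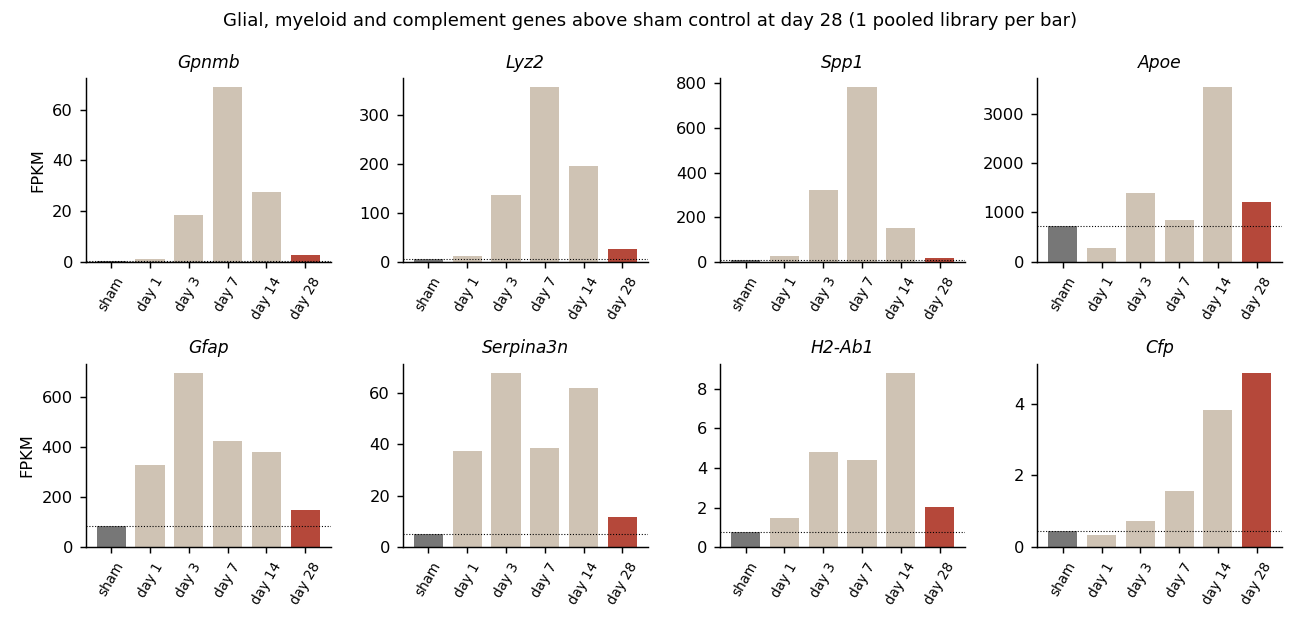
FPKM (y axis, from 0) of 8 genes in the 6 libraries in order of time (grey, sham control; beige, days 1 to 14; red, day 28), with 1 pooled library per bar and the control level dotted. Gpnmb, Lyz2 and Spp1 peak at day 7, Gfap and Serpina3n at day 3, Apoe and H2-Ab1 at day 14, and all of these have come down at day 28 to a level still above control, while Cfp is highest at day 28 with 4.86.

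Reactive astrocyte genes had a positive median at day 28, and a minority passed the threshold. Of 26 genes written 15 were compared, 4 were higher and 1 was lower, 12 had a positive log2 ratio and the median was 0.56. Gfap, the intermediate filament of astrocytes, had 85.8 FPKM in control, 330, 698, 422 and 380 at days 1 to 14 and 150 at day 28, a log2 ratio of 0.80 that lay under the threshold. Vim, a second intermediate filament gene, had 15.5 in control, 167 at day 3 and 21.0 at day 28. Serpina3n, a protease inhibitor, had 5.30 in control, 37.5, 68.0, 38.8 and 62.0 at days 1 to 14 and 11.8 at day 28 (1.14). These 3 genes had their highest library at day 3. Tm4sf1, a membrane protein, had 2.45 and 7.79 FPKM in control and at day 28 (1.63), with 7.06 and 7.28 at days 7 and 14. Osmr, the receptor of oncostatin M, was among the largest ratios of all genes, with 0.0306 and 1.21 FPKM (3.32), and Lcn2, which encodes lipocalin-2, was not listed in control and had 1.1, after 26.6 at day 14. Nes, which encodes nestin, had 1.27 in control and was not listed at day 28. Genes of resting astrocytes were near control, with none of 13 past the threshold and a median of -0.01: the water channel Aqp4 had 27.0 and 26.8 FPKM, and the glutamate transporters Slc1a2 and Slc1a3 had log2 ratios of -0.28 and -0.01.

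Genes of the scar matrix were near control. Of 30 genes of scar and vessel matrix 23 were compared, none passed in either direction and the median was -0.04, although 9 of these genes had their highest library at day 3, 9 at day 7 and 5 at day 14. Col3a1, a fibrillar collagen, had 1.04 FPKM in control, 0.639, 14.6, 21.6 and 12.8 at days 1 to 14 and 0.563 at day 28. Col1a1 and Col1a2, the chains of collagen I, had log2 ratios of -0.44 and -0.39. Day 28 was the lowest of the 6 libraries for 9 of the 23 genes, and the share of all genes compared with day 28 lowest was not counted. Sparc, a collagen-binding protein of astrocytes and vessels, had the largest ratio of the list, with 75.9 in control, 256 at day 7 and 126 at day 28 (log2 ratio 0.73). The summed starts of Sparc gave 1.79, so the count of none past the threshold holds for the gene value used. Cell division genes were mostly too low to compare, with 13 of 18 under 1 FPKM in both libraries, and of the other 5 the kinase gene Plk1 was higher (0.560 and 1.28 FPKM) and the checkpoint gene Bub1b was not listed at day 28. Among genes of vessels, 18 of 20 were compared, 2 were higher and 1 lower, with a median of 0.01. Plvap, a diaphragm protein of leaky endothelium, had 1.22 in control, 3.42, 4.52, 1.1 and 1.39 at days 1 to 14 and 5.07 at day 28, the highest of the 6 (1.96). The endothelial genes Pecam1 and Cdh5 had log2 ratios of -0.09 and -0.13.

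Markers of blood cells were few and none passed the threshold. The 3 haemoglobin genes compared, from red cells, all had negative log2 ratios, from -0.71 to -0.55, and their summed FPKM was 292 in control and 192 at day 28, within a range of 159 to 475 over the 6 libraries. Of 22 genes of T and B lymphocytes 3 were compared, with log2 ratios of -0.76 (Trbc2), -0.32 (Coro1a) and 0.61 (Cd4), and of 12 neutrophil genes 1, Csf3r, with 1.30 and 2.22 FPKM (0.73). The T cell receptor component Cd3e was listed in neither library, and S100a8, the abundant neutrophil gene, had 0.0729 in control and was not listed at day 28.

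Genes that neurons turn on with activity were higher at day 28, and many were at their highest there. Of 20 immediate early genes 14 were compared, 5 were higher, none was lower, 13 had a positive log2 ratio and the median was 0.88. Day 28 was the highest of the 6 libraries for 8 of the 14 and day 1 for 5. Of all genes compared 53.8% had a positive log2 ratio, and the share with day 28 highest was not counted. Arc, whose product acts at the synapse, had 17.6 FPKM in control, 15.1, 44.9, 29.6 and 32.1 at days 1 to 14 and 52.0 at day 28 (log2 ratio 1.55). Nr4a1, a nuclear receptor, had 11.3 in control, 15.3, 12.3, 18.3 and 19.6 at days 1 to 14 and 27.7 at day 28 (1.29). Egr2, a zinc finger factor, had 0.778 in control, 0.677, 1.81, 1.76 and 1.62 at days 1 to 14 and 3.11 at day 28 (1.87). For these 3 genes day 28 was above each of the other 5 libraries. Fos and Fosb, subunits of the AP-1 factor, had 13.9 and 2.37 FPKM at day 28 and log2 ratios of 1.87 and 1.1, but their highest library was day 1, with 16.1 and 11.9. The phosphatase gene Dusp1 had 8.51 and 16.1 FPKM (0.91). Bdnf, a growth factor of neurons named after its values were seen, had 6.70 and 5.88 FPKM.

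Some genes that glucocorticoid hormones turn on were higher too. Of 14 written 13 were compared, 5 were higher, 1 was lower, 11 had a positive log2 ratio and the median was 0.69. Sult1a1, a sulfotransferase, had 2.02 FPKM in control, 4.57, 5.54, 3.74 and 5.48 at days 1 to 14 and 9.53 at day 28, the highest (log2 ratio 2.18). Sgk1, a kinase, had 15.0 in control, 54.5, 24.8, 40.2 and 19.3 at days 1 to 14 and 52.8 at day 28 (1.81). This value came from starts, and its summed ends, under 1 FPKM in both libraries, gave -1.91. Fkbp5, a chaperone of the hormone receptor, had 7.72 in control, 23.2 at day 1 and 15.9 at day 28 (1.03), and Cdkn1a, a cell cycle inhibitor, 3.85, 55.3 and 8.21 (1.07). For 8 of the 13 members the highest library was day 1, and for Sgk1 and Fkbp5 day 28 was next to it. Plin4, a lipid droplet protein, was not listed in control and had 2.99 at day 28, and Arrdc2 had 1.46 in control and was not listed at day 28.

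The circadian clock list had 16 of 17 genes compared, 1 higher, none lower and a median of 0.17. Per2, a repressor of the clock, had 2.87 FPKM in control, 5.0, 4.92, 3.39 and 4.07 at days 1 to 14 and 9.46 at day 28, the highest (log2 ratio 1.69). Per1 had 9.63 in control, 27.2 at day 1 and 19.2 at day 28 (0.99). Dbp and Nr1d1, clock outputs named after their values were seen, had log2 ratios of -0.18 and -0.27. Per3 had 6.86 FPKM in control, its highest library, and 4.83 at day 28 (-0.50, and 1.28 with summed ends), so Per2 was the 1 Per gene past the threshold. The hour at which the mice of each group were killed is not given in the sources used here.

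Genes of protein folding in the endoplasmic reticulum were also higher. In the list of heat shock and unfolded protein genes 14 of 20 were compared, 3 were higher, none was lower, 13 had a positive log2 ratio and the median was 0.51. Hspa5, the main chaperone of the compartment, had 64.4 FPKM in control, 133, 118, 89.7 and 78.2 at days 1 to 14 and 145 at day 28 (log2 ratio 1.17), while its summed ends gave 0.52. Pdia6, a disulfide isomerase, had 12.8 in control, 41.3, 43.2, 27.2 and 22.3 at days 1 to 14 and 37.9 at day 28 (1.56). Ddit3, a stress-induced factor, had 0.976 and 5.55 FPKM, the highest of the 6 at day 28, with a large part of the day 28 value from events outside the gene, and a log2 ratio of 1.43 from events inside it. Calr, another chaperone, had 93.8 and 89.9 FPKM, so the list did not move as a block. The cytosolic chaperone Hsp90aa1, also named after its value was seen, had 137 and 138.

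The promoters of some of these genes hold elements known from their regulation, and 4 windows are shown because they lie before genes above control at day 28. The endoplasmic reticulum stress element, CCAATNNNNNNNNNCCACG, was found in 5 of 17 members with a promoter in RefSeq (Hspa5, Pdia6, Calr, Creld2 and Hsp90b1) and in 0.119% of all promoters. The glucocorticoid response element, searched as AGAACANNNTGTTC, was found in 1 of 13 members, Sgk1, and in 0.0487% of all promoters, and its letters match again 1 base on from the opposite strand. The CArG box, the site of serum response factor, was found in 1 of 16 immediate early genes, Egr2, and in 1.63% of all promoters. Elements are in capitals and each window is read on the strand of its gene, the plus strand in all 4:
Hspa5, chr2:34772004-34772063: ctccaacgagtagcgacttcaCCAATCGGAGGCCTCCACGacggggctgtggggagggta
Pdia6, chr12:17266470-17266529: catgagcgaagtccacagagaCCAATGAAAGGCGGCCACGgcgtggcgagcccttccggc
Sgk1, chr10:21993678-21993737: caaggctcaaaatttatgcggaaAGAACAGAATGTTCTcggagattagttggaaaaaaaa
Egr2, chr10:67537772-67537831: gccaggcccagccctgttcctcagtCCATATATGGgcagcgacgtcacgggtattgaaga

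The element begins 65 bases before the start of Hspa5, 98 before that of Pdia6, 189 before that of Sgk1 and 72 before that of Egr2. The transcript start listed at day 28 fell on the RefSeq start for Sgk1 and Egr2, 5 bases from it for Hspa5 and 44 bases from it for Pdia6. At that start of Sgk1 the FPKM was 9.97 in control and 27.6 at day 28, so this start held part of the difference of the gene. The start of Hspa5 had 61.3 in control and 88.1 at day 28, so it differed less than the gene, with 64.4 and 145. That of Pdia6 had 12.6 and 37.9, and that of Egr2 0.778 and 3.11. Calr and Creld2 carry the same element as Hspa5 and had log2 ratios of -0.06 and 0.46. On both strands, the cAMP response element TGACGTCA was found in 2 of 16 immediate early genes (Btg2 and Dusp1) and in 1.79% of all promoters, and the E-box CACGTG in 5 of 15 clock genes and in 7.15% of all promoters. No promoter of Arc or Per2 was among those searched.

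**Figure D4:**
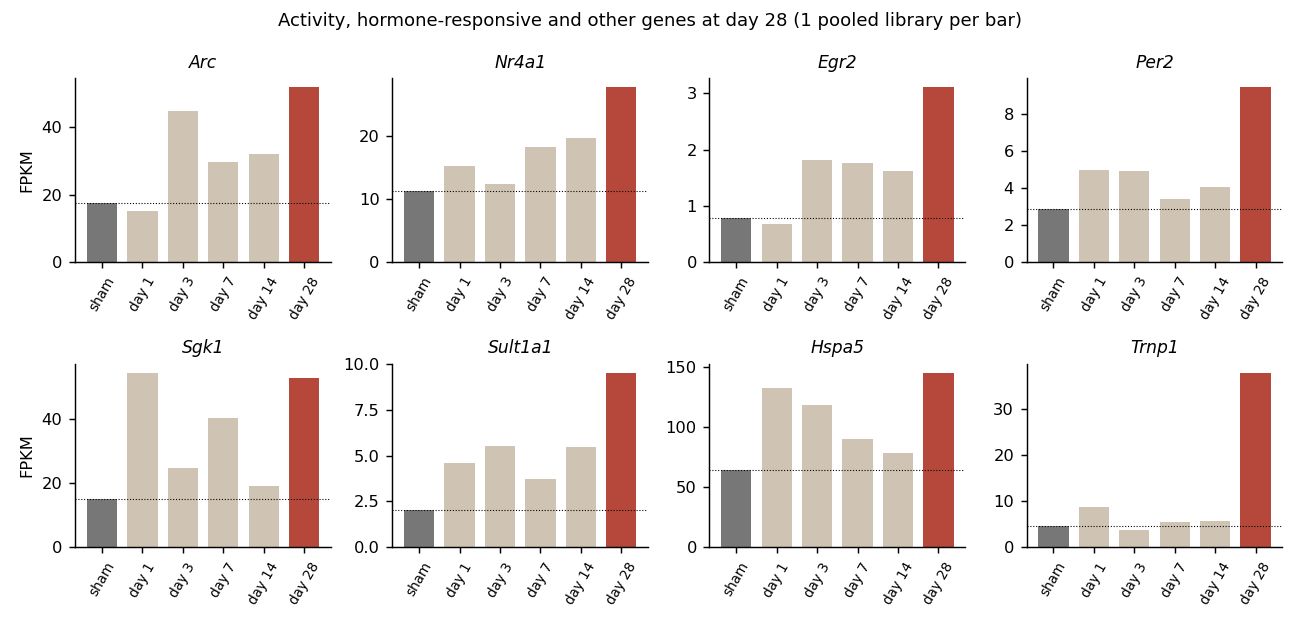
FPKM (y axis, from 0) of 8 genes in the 6 libraries in order of time (grey, sham control; beige, days 1 to 14; red, day 28), with 1 pooled library per bar and the control level dotted. Day 28 is the highest bar for each gene but Sgk1, where day 1 is slightly above it (54.5 against 52.8), and Trnp1 stands at 38.0 against 3.65 to 8.73 in the other 5 libraries.

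Synaptic and channel genes stood slightly under control as groups. Of 23 genes of synaptic vesicles and the postsynaptic density none was higher, 1 was lower, 3 had a positive log2 ratio and the median was -0.16. Nrgn, a calmodulin-binding protein of dendrites, had 698 FPKM in control and 506 at day 28 (log2 ratio -0.46), Syp, a vesicle protein, 446 and 399, and Camk2a, the kinase of the postsynaptic density, 293 and 458 (0.64), the highest of the 6 libraries. Rims1, an active zone scaffold, was the member past the threshold. It had 29.3 in control, 16.5 at day 1 and 12.4 at day 7 and was not listed at days 3, 14 and 28, so its absence at day 28 was shared with earlier libraries. Of 24 potassium and sodium channel genes none was higher and 1 was lower, with a median of -0.18. The sodium channel gene Scn2a had 40.6 in control and 25.3 at day 28 (-0.68), but its earlier libraries, with 18.9 to 24.1, were lower still.

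Of 19 glutamate and GABA receptor genes 1 was higher, none was lower and the median was -0.10. Grin2a, a subunit of the NMDA receptor, had 3.28 FPKM in control, 7.15, 9.97 and 10.8 at days 1 to 7, was not listed at day 14 and had 12.3 at day 28 (log2 ratio 1.88). The AMPA receptor genes Gria1 and Gria2 had log2 ratios of 0.38 and -0.12. Genes of cortical layers (16 compared, median -0.11) and of interneurons (12 compared, median 0.08) held 1 called gene between them, Ntsr1 of deep layer neurons, with 1.40 in control and not listed at day 28. The interneuron peptides Npy and Vip had log2 ratios of -0.50 and -0.39, and the GABA-synthesising enzymes Gad1 and Gad2 had 0.30 and 0.42, both at their highest at day 28. None of 9 axon growth genes passed (median -0.04), with Gap43 at 117 and 129 FPKM.

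Myelin genes were the group with the lowest median of those with 5 or more members compared. Of 15 written 13 were compared, none was higher, 1 was lower, 10 had a negative log2 ratio and the median was -0.40. Ugt8a, the enzyme of galactocerebroside synthesis, had 17.8 FPKM in control, 6.56, 13.5, 14.0 and 9.71 at days 1 to 14 and 8.17 at day 28 (log2 ratio -1.12). Fa2h, which makes the hydroxylated fatty acids of myelin lipids, had 17.3 and 11.3 (-0.61), and the myelin surface protein Mog had 44.9 and 30.1 (-0.57). Mbp, a major structural gene of myelin, differed less, with 1241 and 1142 FPKM, and was at its lowest of the 6 libraries at day 28. Mag went the other way, with 33.8 and 54.0 (0.67), within a range of 26.8 to 69.0 over the 6 libraries. Genes of oligodendrocyte precursors had a median of -0.14 over 7 genes, none past the threshold, with Cspg4 at 1.97 and 1.1 FPKM.

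Lists of structures next to the cortex gave mixed results. Of 16 choroid plexus and ependyma genes 15 were compared, 3 were higher, 1 was lower, 13 had a positive log2 ratio and the median was 0.68. Ttr, the thyroid hormone carrier made by choroid plexus, had 279 FPKM in control, 450, 177, 336 and 291 at days 1 to 14 and 549 at day 28 (log2 ratio 0.98). Kcne2, a channel subunit of choroid epithelium, had 0.750 and 2.18 (1.42). Slc4a5, a bicarbonate transporter, had 0.439 and 1.41 (1.49), and Folr1, the folate receptor, 2.34 and 5.69 (1.25), although its summed ends gave -0.48. Ccdc153, an ependymal cilium gene, had 2.21 and 0.926 (-1.17). The summed FPKM of the 15 genes was 309 in control and 593 at day 28, and 211 to 491 in the other 4 libraries. Of 14 genes of striatal projection neurons 11 were compared, 1 was higher (Isl1, 0.491 and 1.35 FPKM), 10 had a positive log2 ratio and the median was 0.41, with Drd2, a dopamine receptor, at 8.15 and 12.4 and Penk, an opioid peptide, at 119 and 167. Of 15 hypothalamic genes 7 were compared, 2 were higher and the median was 0.82. The 2 were the peptides Avp and Oxt, which were not listed in control and had 3.01 and 1.48 FPKM at day 28, after 18.9 and 9.28 at day 1. None of 7 thalamic genes passed (median -0.15), with Prkcd, a kinase of thalamic relay neurons, at 9.47 and 5.44. None of 6 hippocampal genes passed (median 0.33), with Wfs1, a marker of CA1 neurons, at 23.2 and 29.1. Of 9 meningeal fibroblast genes 1 was higher, the transporter gene Slc47a1 with 1.20 and 2.83 FPKM, and the median was -0.04. The part of neighbouring tissue in any result above was not tested.

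Among the genes with the largest ratios, many were low in control and near a steady level in every library after stroke. Igsf1 had 0.0869 FPKM in control, 1.82 to 3.45 at days 1 to 14 and 2.86 at day 28 (log2 ratio 3.99), and Slc25a42, a mitochondrial carrier, had 0.576 in control, 3.54 to 6.72 at days 1 to 14 and 5.46 at day 28 (3.04). Haus3, a spindle protein, had 0.0765 in control and 1.78 at day 28, within 1.64 to 2.54 at days 1 to 14. For these 3 genes control was the library that stood apart in the gene value used, and other gene values differed. The summed starts of Igsf1 gave a log2 ratio of 1.93. Those of Slc25a42 gave 5.80, because control lists no start for it. The summed ends of Haus3, under 1 FPKM in both libraries, gave -0.29. Others were highest at day 28. Trnp1, a nuclear protein of neural progenitors, had 4.62 in control, 8.73, 3.65, 5.39 and 5.81 at days 1 to 14 and 38.0 at day 28 (3.01), the highest FPKM among the 12 genes with the largest ratios. Tnfrsf25, a death receptor family member, had 0.241 in control and 2.85 at day 28 (3.11), and Ccdc159 and Pstpip2, with 3.71 and 2.56 FPKM at day 28, were also at their highest there. Hspa2, a chaperone, and Sbno2, a regulator of macrophage genes, were also among the 12 largest, as were Osmr and Cfp, and had 1.12 and 1.87 FPKM. Hspa2 had 0.000178 in control and 0.000132 at day 1 and was not listed at day 3. The summed starts of Sbno2, under 1 FPKM in both libraries, gave a log2 ratio of -0.47, against 3.01 for the value used.

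The lowest ratios were mostly those of genes near 1 to 3 FPKM in control. Zfp329 had 1.53 FPKM in control and 0.000327 at day 28, AI480526 2.88 and 0.0843, 1110008L16Rik 1.46 and 0.0583 and Cyp4f17 1.91 and 0.135, each at its lowest at day 28. Gng3, a G protein subunit of neurons on chr19:8836933-8839194, was well expressed. It had 77.8 in control, 78.6, 95.8, 42.9 and 164 at days 1 to 14 and 9.13 at day 28 (log2 ratio -3.08). Rpl41, a ribosomal protein gene with many processed copies, had 179 in control, 0.491 at day 1, was not listed at day 3, and had 154, 11.1 and 12.1 at days 7, 14 and 28. Ppia, a housekeeping isomerase that also has many processed copies, varied in the same irregular way, with 498, 601, 62.2, 121, 713 and 131 from control to day 28. Eef1a2, the elongation factor of neurons, named after its values were seen, had 411 in control, 298 to 389 at days 1 to 14 and 70.2 at day 28 (-2.55). The remaining members of the 12 lowest were 5330434G04Rik, Polm, D130040H23Rik, Steap3, 2700099C18Rik and Zfp974, at 0.0712 to 0.360 FPKM at day 28.

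Genes listed in 1 library of the pair only were mostly low. The 84 not listed in control had a median FPKM of 1.44 at day 28, and the 84 not listed at day 28 a median of 1.47 in control. Of the first, 31 were listed in all 4 other libraries and 11 in none of them, and of the second, 21 and 12. The highest in the first set was Baalc, a membrane-associated protein of brain, with 29.5 FPKM at day 28 and no listing in the other 5 libraries. Sprn, a prion-related gene, had 10.5 at day 28 and 4.14 at day 14, and Phf5a, a core splicing factor, 10.4 at day 28, 14.4 at day 1 and 15.7 at day 14. Cebpd, a factor of acute phase genes, had 3.89 at day 28 and 3.81 at day 14. Gm4617, Gm5514, Lmbrd2 and Dnah7c followed, with 3.63 to 11.0 FPKM. In the second set Rims1 and AI593442 led with 29.3 and 20.1 FPKM, and Rpl13-ps6, C130074G19Rik, Pcdh20, Hnrnpa3, Elfn2 and Rgmb had 6.31 to 8.74. Of these 6, all but Rgmb were listed in control alone. Phf5a and Hnrnpa3 are genes that every cell uses, so a missing entry is no measure of absent RNA. In the library where the gene was not listed, events of another identifier or of none lay inside its span on its strand for 1 gene of the first set and for 2 of the second.

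**Figure D5:**
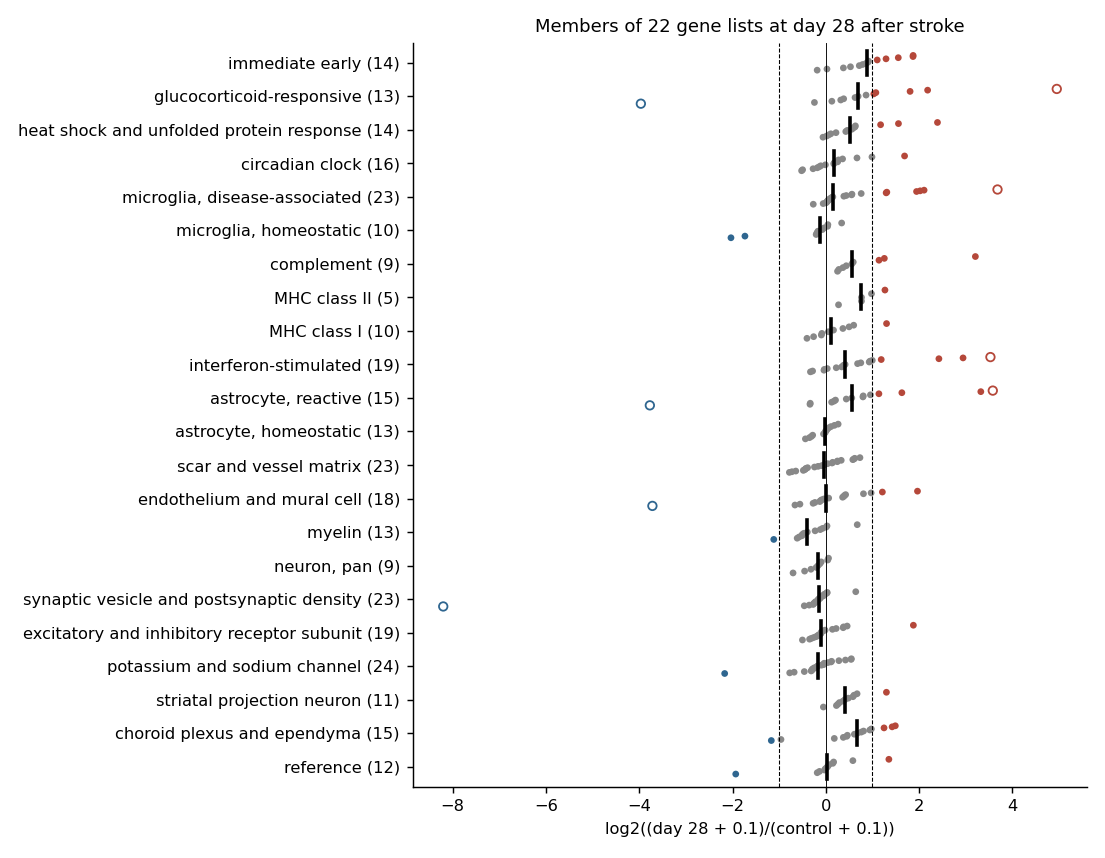
Each point is a member of 1 of 22 gene lists (number compared in parentheses), placed by its log2 ratio of day 28 to control on the x axis; red is 1 or above, blue -1 or below, open circles are genes listed in 1 library only, and black bars are list medians. Immediate early genes have the highest median (0.88) and myelin genes the lowest (-0.40) of the lists shown, and no point of the matrix list lies past a dashed line.

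Of 14 genes used as references 12 were compared, 1 was higher, 1 was lower and the median was 0.04. Actb, Hprt and Pgk1, a cytoskeletal and 2 metabolic genes, had log2 ratios of 0.17, 0.15 and -0.01. Tbp, the TATA-binding protein, had 2.18 FPKM in control, 1.99 to 3.29 at days 1 to 14 and 5.73 at day 28 (1.35), and Gusb, a lysosomal enzyme, had 2.78 in control, 26.7 at day 7 and 4.20 at day 28 (0.58). A single reference gene could thus stand 2-fold from control, as Tbp and Ppia did in opposite directions, and a difference of that size in 1 gene of a list is read beside the counts of the whole list and of all genes.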

How the data were processed

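RNA-seq of the ipsilateral cortex was deposited as 1 table per library. The authors computed FPKM values (fragments scaled to length and to library size) for each transcript start, transcript end and splicing event of an assembled locus. The submitters' notes name Trimmomatic 0.30, HISAT2 2.0.1, HTSeq 0.6.1 and mm10, and the assembler is not given in the sources used here. Each library pooled 3 mice, so p-values, intervals and detection floors were not computed, and the precision is unknown. The labels give 33.6 M reads as the mean over the libraries.

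Duplicate rows and events without an Ensembl identifier were dropped (910 such events in control and 910 at day 28). The value of a gene was the largest of its summed starts, its summed ends and any single event. The FPKM of the locus cannot be below it, and a locus that joins neighbours can exceed its gene. Of 15441 identifiers, 15429 matched GENCODE M21 (GRCm38), and 93.5% of the events used at day 28 overlapped their gene. Genes of at least 1 FPKM in either library entered the comparison. Their log2 ratio was taken after adding a pseudocount of 0.1 FPKM to both values, a gene not listed being taken as 0, and the threshold was 1. A fold on this scale understates the change of low genes. A gene list was described by its counts and median. All 35 lists, their members and the genes compared were chosen with earlier results of these data known.

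Genes named were the 12 largest and 12 smallest ratios among genes listed in both libraries with at least 50% of the value inside the annotated gene, the 8 highest genes listed in 1 library only for each library, and per list the 6 largest ratios in size and the first 3 written. Names outside this rule were chosen after their values were seen, and some genes the rule names are not reported here. Reads of paralogs, processed copies and overlapping genes may be split by the authors' counting in a way not known here. Promoters (250 bases before to 50 after a start) are from RefSeq, build GRCm38.p6, and motifs were searched on both strands. No column of per-sample values was left unused. Steps were tested on simulated data. Alternatives changed the pseudocount, filter, threshold, scaling, gene value, span and gene type. Python 3.11.15, numpy 2.4.6, pandas 2.3.3 and matplotlib 3.10.9 were used.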

Additional observations from a re-analysis of the deposited data

Results flagged for a closer look

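Gng3 stood on opposite sides of the control library at 2 time points, since its log2 ratio was -3.08 at day 28 but 1.07 at day 14. Fcrls was also below control at day 28, at -2.03, and above it at days 3, 7 and 14, at 2.06, 2.36 and 1.27. Neither difference between days was tested, since each day is 1 library, and all of these ratios share the control library.

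Loci that carry no gene identifier were outside the gene comparison. Of 142 such loci with at least 1 FPKM in either library, 26 were higher at day 28 and 25 lower by the same threshold, and 17 of the 26 were not listed in control. Beside them, 3.68% of the genes compared were higher and 2.79% lower. Among genes with a mean of 0.5 to 2 FPKM, 25.6% passed in either direction. The levels of the loci were not matched to those of genes. These loci have no name in the tables.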

How the results depend on the processing

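The counts of 432 higher and 328 lower genes depended on the treatment of low values. A pseudocount of 1 FPKM gave 241 and 183, no filter on low values 1114 and 859, and a minimum of 5 FPKM in either library 140 and 99. A log2 threshold of 2 gave 142 and 116, and one of 0.58 gave 1060 and 820. Summed starts gave 517 lower genes. Chosen after seeing the data, a mean FPKM of at least 5 over the pair gave 102 and 68, and the requirement that a gene passed with each of 4 gene values (starts, ends, largest, inside the span) gave 196 and 142. A pseudocount of 0.5 FPKM, other scalings, events inside the span, protein-coding genes only and genes listed in both libraries kept both counts within 1.5 times. Of the named genes past the threshold and with at least 1 FPKM in either library under the gene value used, Fcrls turned to 5.22 with summed starts, because control lists no start for it, and Folr1 to -0.48 with summed ends, where the cause was not tested. With a pseudocount of 1 FPKM, 17 named genes no longer passed the threshold. The list counts depended on the setting too. A count was taken as moved if it changed more than 1.5 times or to or from 0. Of the 35 lists, the higher count moved in 9 with that pseudocount, 10 with summed ends and 8 with summed starts. The lower count moved in 2, 6 and 7 lists, and in 6 with only genes listed in both libraries. List medians moved by more than 0.25 in 0, 1 and 3 lists. No paired analysis was possible because each group has 1 library. No replicate could be left out for the same reason. Depth per library is unknown, so no difference between low genes could be held against counting error.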
